A study of Homo sapiens with 12 samples.

Results

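The genes described here are those of the unfolded protein response and the protein-folding machinery of the endoplasmic reticulum (ER), a list of 43 ER stress sensors, chaperones, folding enzymes, translocation factors and factors of ER-associated degradation (ERAD). They were chosen by gene symbol, and each gene was read from the brightest probe set that names it alone. On this rule 42 of the 43 were measured, out of 19775 genes with such a probe set, and SYVN1, the ubiquitin ligase of ERAD, had none. The measurements came from 12 Affymetrix expression arrays of human cell lines labelled as multiple myeloma, 3 arrays in each of 4 groups. The groups were MMS1 with a miR-16 sponge, MMS1 with a control sponge, RPMI8226 with a miR-16 sponge and RPMI8226 with a control sponge. All 4 groups carried a lentivirus with GFP, were sorted by flow cytometry and expanded, and grew in parallel flasks to confluence. A sponge is a transcript with binding sites for a microRNA, which holds it away from its targets, and the labels also call the sponge groups miR16 KO, knock down and siRNA treated. The stated aim was to imitate the loss of miR-16 with deletion of 13q in myeloma. Nothing in the labels says that the 3 arrays of a group came from separate transductions, so the p-values measure only the spread between these arrays, which may be technical.

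The ER folds secreted and membrane proteins, and antibody-secreting plasma cells, from which myeloma arises, are known for a large ER and for their dependence on XBP1. When unfolded proteins accumulate, the membrane sensors ERN1 (also called IRE1), EIF2AK3 (PERK) and ATF6 start the unfolded protein response. ERN1 splices XBP1 mRNA, ATF6 is cut to release a transcription factor, and EIF2AK3 slows translation and raises DDIT3 through ATF4. Their targets are chaperones such as HSPA5, oxidoreductases that form disulfide bonds, and the ERAD factors that carry misfolded proteins out of the ER.

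The sponge was directed at hsa-miR-16-5p, whose mature sequence is shown because its seed, bases 2 to 8 in capitals, is the part that pairs with a target.
hsa-miR-16-5p: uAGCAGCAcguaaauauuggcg
RefSeq places it at chr13:50049027-50049048 on the minus strand (MIR16-1) and at chr3:160404754-160404775 on the plus strand (MIR16-2), in GRCh38.p14. The arrays hold no reading of the mature microRNA that was used here, so the action of the sponge on it was not checked.

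Promoters of the listed genes are known for the ER stress response element (ERSE), a CCAAT box and a CCACG box 9 bases apart, to which NF-Y and ATF6 bind. RefSeq promoter windows, 250 bases before to 50 after the transcription start in GRCh38.p14, were found for 40 of the 43 genes, and PDIA3, DERL1 and SEC24D had no entry. Searched on both strands, the ERSE (CCAAT, any 9 bases, CCACG) was matched exactly in 7 of the 40 windows (17.5%), against 19 of 15842 windows of protein-coding genes (0.12%). The related ERSE-II (ATTGG, any 1 base, CCACG) was matched in 3 of the 40 (7.5%), against 0.0757% of all windows. The boxes alone were common: CCAAT lay in 80.0% of the listed genes' windows and 36.4% of all, and CCACG in 70.0% and 44.0%. These boxes are part of both elements, so the shares are not separate observations. TGACGTGG, the UPR element, was found in 1 of the 40 windows (2.5%, against 0.833% of all), where it overlaps an ERSE-II match of HYOU1, and the C/EBP-ATF site TGATGNAAN in 2 (5.0%, against 2.53%). The 40 windows are counted among the 15842. Promoters of the listed genes are known for the ERSE, so its higher share among them is not a test. All hits are matches of letters and not shown binding sites.

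The matches of the 4 genes that rose with the sponge in MMS1 and have one are printed with 5 bases on each side, on the strand of the gene, with the boxes in capitals. A gene is said to rise or fall where limma's adjusted p was under 0.05, as 4.34% of all genes did upward and 8.08% downward in MMS1. HERPUD1, XBP1 and CALR are shown beside them as genes that hold a match and were not called in either line. A match on the opposite strand reads CGTGG and ATTGG in an ERSE, or CGTGG and CCAAT in an ERSE-II.
HSPA5: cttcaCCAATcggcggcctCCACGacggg
HSP90B1 distal: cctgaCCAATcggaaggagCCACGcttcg
HSP90B1 proximal: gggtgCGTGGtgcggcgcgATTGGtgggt
CANX: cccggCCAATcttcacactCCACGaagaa
HYOU1 distal: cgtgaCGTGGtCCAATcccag
HYOU1 proximal: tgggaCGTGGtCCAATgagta
HERPUD1: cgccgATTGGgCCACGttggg
XBP1: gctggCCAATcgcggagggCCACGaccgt
CALR: ccacgCGTGGtcgaccatcATTGGtcggt
The HSPA5 window lies at chr9:125241386-125241414 on the minus strand, and the HSP90B1 windows lie at chr12:103930211-103930239 and chr12:103930316-103930344 on the plus strand. The CANX window is chr5:179698773-179698801 on the plus strand, and those of HYOU1 are chr11:119057375-119057395 and chr11:119057269-119057289 on the minus strand. HERPUD1 is at chr16:56932020-56932040 (plus), XBP1 at chr22:28800598-28800626 (minus) and CALR at chr19:12938379-12938407 (plus). The ERSE match of HSPA5 spans positions -66 to -48 from the start and the proximal match of HSP90B1 -89 to -71. The CALR match spans -225 to -207, so distance varied among genes that share the element.

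**Figure D1:**
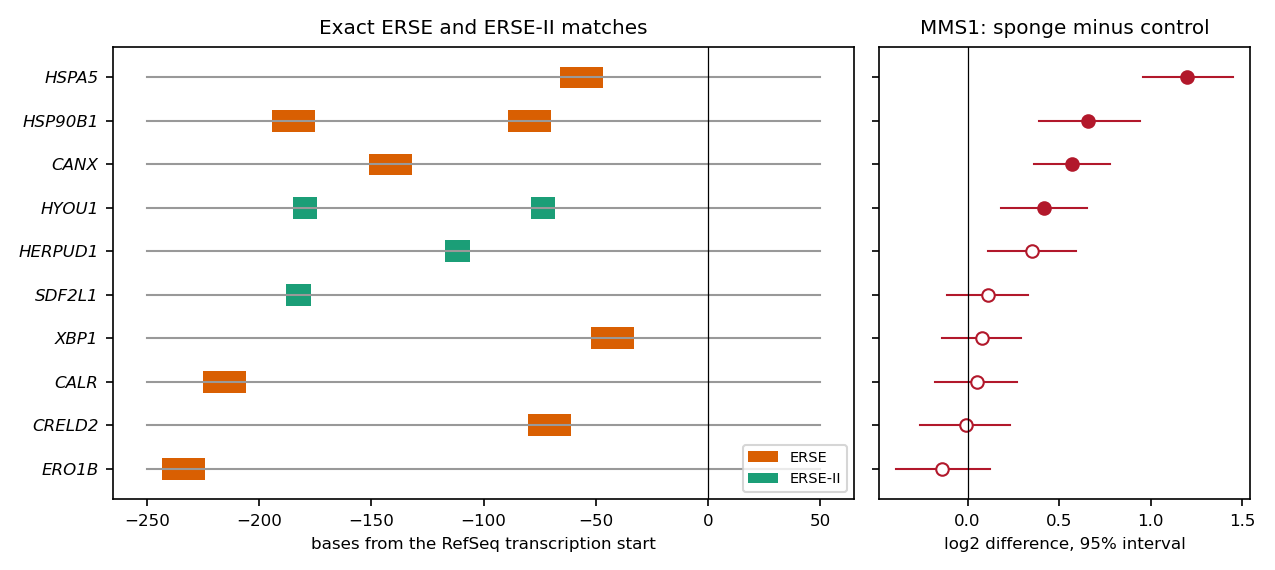
Left, exact ERSE (orange) and ERSE-II (green) matches in the promoter windows of the 10 listed genes that hold one, in bases from the RefSeq transcription start. Right, their log2 difference between MMS1 miR-16 sponge and control arrays with its 95% interval, filled where the adjusted p was under 0.05: HSPA5, HSP90B1, CANX and HYOU1 are filled, and the other 6 are open.

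Of the 10 genes with a match, 4 rose with the sponge in MMS1 and 0 fell (median log2 difference 0.23). Of the 29 measured genes searched without one, 7 rose and 2 fell (median 0.19). SSR3 had the second-largest rise and no ERSE or ERSE-II match, and its 250 bases upstream are set beside those of HSPA5 with every CCAAT and CCACG box, on either strand, in capitals.
HSPA5 upstream: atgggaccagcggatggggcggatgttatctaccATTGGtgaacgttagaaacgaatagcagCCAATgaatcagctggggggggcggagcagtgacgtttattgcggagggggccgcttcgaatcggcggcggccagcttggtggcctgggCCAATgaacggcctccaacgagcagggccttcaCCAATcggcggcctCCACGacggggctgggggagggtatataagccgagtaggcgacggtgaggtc
SSR3 upstream: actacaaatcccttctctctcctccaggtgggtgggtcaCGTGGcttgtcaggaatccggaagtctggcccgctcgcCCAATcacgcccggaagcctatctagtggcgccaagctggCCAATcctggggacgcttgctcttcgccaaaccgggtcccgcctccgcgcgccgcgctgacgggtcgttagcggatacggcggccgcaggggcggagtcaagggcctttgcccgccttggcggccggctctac
These lie at chr9:125241344-125241593 and chr3:156555118-156555367, both on the minus strand of GRCh38.p14. HSPA5 has 4 CCAAT boxes and 1 CCACG box in this stretch, and SSR3 has 2 and 1, not at the ERSE spacing.

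Log2 signals ran from 4.0 to 14.71, the array medians lay between 5.80 and 5.90, and no 2 arrays were identical. The listed genes were bright: 32 of 42 lay above the upper quartile of genes (7.62) and 4 below the median gene (6.44). The label of the cells was checked on 12 plasma cell markers, of which 2 lay above the upper quartile and 7 below the median gene. TNFRSF17, the receptor BCMA, had a mean of 4.46 and JCHAIN, the antibody joining chain, of 4.20, near the lowest value in the table, and CD38 had 4.91 and PRDM1 6.01. SDC1, the plasma cell surface marker, stood at 8.90. All 9 measured genes of 16 erythroid markers lay above the upper quartile, with HBE1, an embryonic globin, at 14.16, HBZ at 13.05, GATA1 at 9.56 and KLF1 at 9.27. The arrays therefore go against the label on these markers, and the lines are called MMS1 and RPMI8226 as labelled. MMS1 miR-16 sponge replicate 1 stood apart, with a mean 18S rRNA signal of 7.839, against 9.56 to 11.144 on the other 11 arrays.

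In MMS1, the genes that rose with the miR-16 sponge were ER chaperones, disulfide-forming enzymes, translocation factors and DDIT3. None of the 9 measured ERAD genes of the list was called. With 4.34% of all genes called higher, that count is near the background and is no result about ERAD. Of the 42 genes measured, 11 rose, 2 fell and 29 were not called (limma's moderated test, Benjamini-Hochberg adjusted p under 0.05 over 54613 probe sets). Of all genes 4.34% were called higher and 8.08% lower, so the share of listed genes called higher, 26.2%, lay above the background and the share called lower, 4.76%, did not. Among the 27306 probe sets above the median signal, tested alone, 2543 were called higher and 4023 lower. Of the 41 listed genes among them 14 were called higher and 2 lower. The median log2 difference of the listed genes was 0.19, against -0.04 over all genes. All 3 sponge arrays lay above all 3 control arrays for 17 listed genes (40.5%, against 12.3% of all genes) and below them for 5 (11.9%, against 18.8%). In bulk RNA, a different level per cell and a different share of cells with that level cannot be told apart.

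In RPMI8226 the same comparison called 0 of the 42 genes in limma's test, with 10 at an unadjusted p under 0.05 (23.8%, against 14.3% of all genes). The background was also low, 0.0152% of genes called higher and 0.202% lower. The listed genes are bright, and bright probe sets had small p more often. Of the 27306 probe sets above the median signal, tested alone, 6097 had an unadjusted p under 0.05 in limma's test. Whether the listed genes exceed others of like brightness was not tested. The median log2 difference was -0.09, against -0.02 over all genes. The 3 sponge arrays lay below the 3 control arrays for 18 listed genes (42.9%, against 17.1% of all genes) and above them for 4 (9.52%, against 7.79%). With quantile normalization the median moved to -0.01 and 0 were called. Testing the brighter probe sets only called 3 listed genes lower, HSP90B1, PDIA6 and DERL1 (limma, adjusted p = 0.03, 0.0333 and 0.026), where 1088 of all 27306 probe sets tested were called lower. A trend in the prior variance called the same 3 (adjusted p = 0.0109, 0.00693 and 0.0104), with 1413 of 54613 probe sets called lower.

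**Figure D2:**
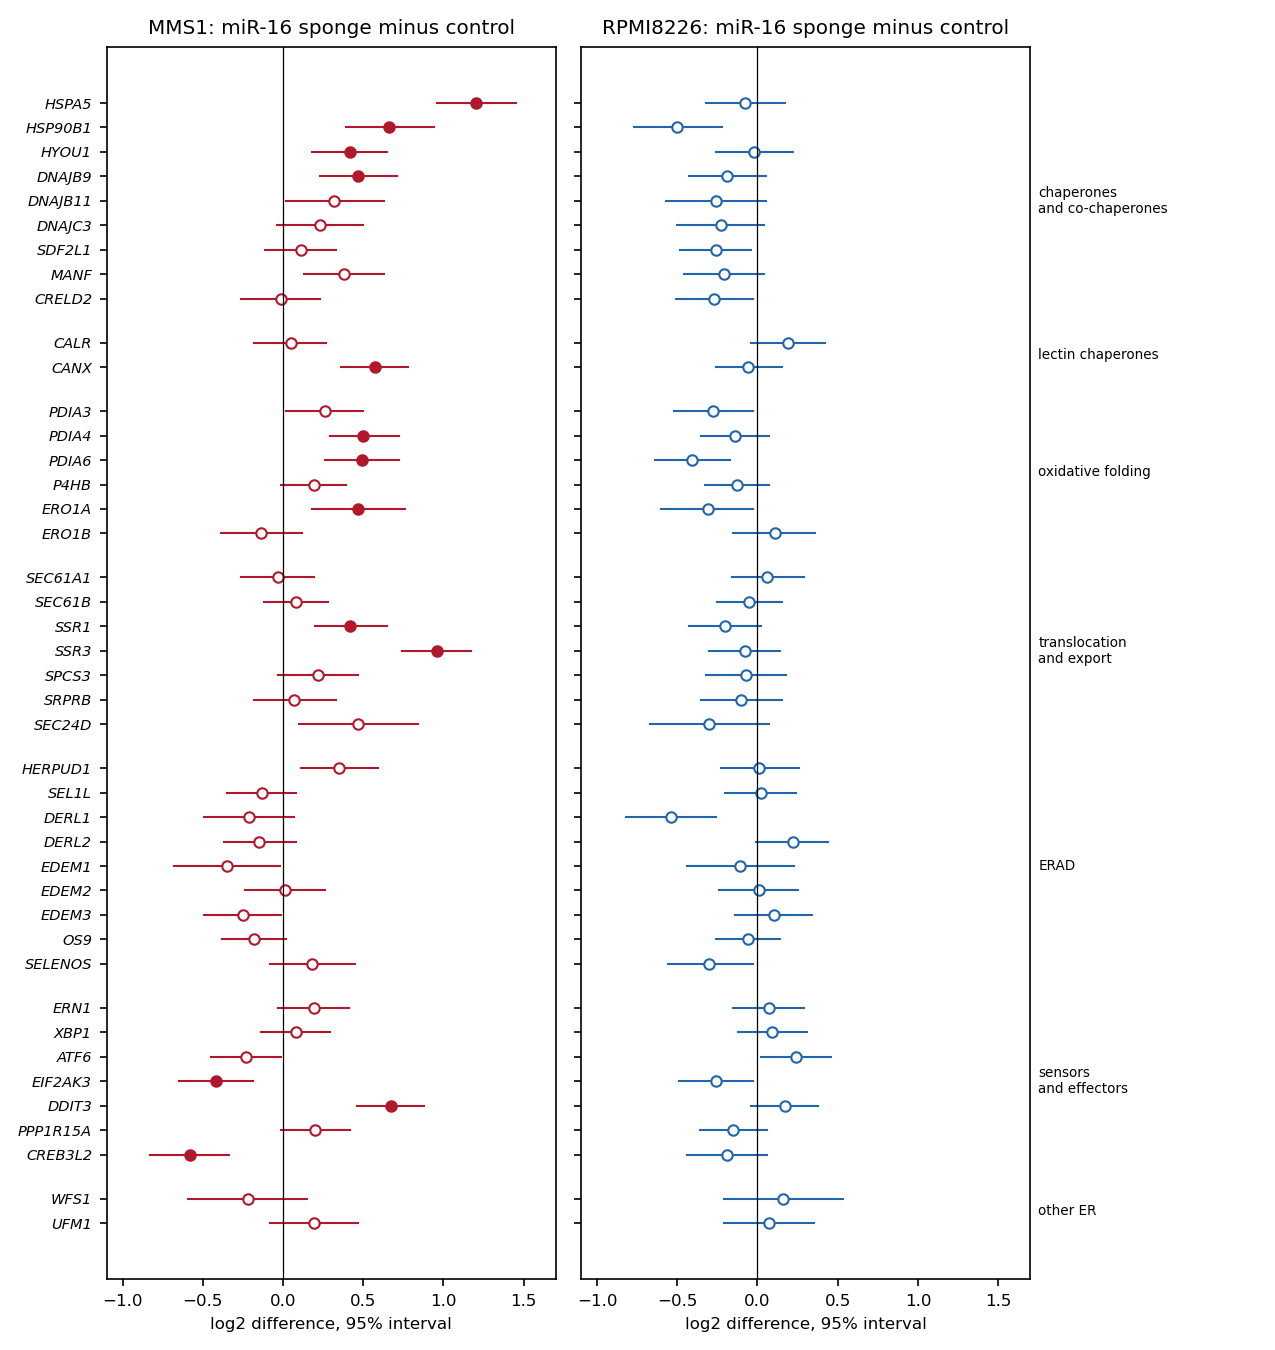
Log2 difference between miR-16 sponge and control arrays with its 95% interval for each of the 42 genes, by role, in MMS1 (left) and RPMI8226 (right). Filled points have an adjusted p under 0.05; there are 13 in MMS1 (11 above 0, 2 below) and 0 in RPMI8226.

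The difference between the lines in the response to the sponge was tested directly, as the RPMI8226 effect minus the MMS1 effect. It was negative and called for 9 listed genes and called positive for 0 (21.4% lower, against 3.27% of all genes lower and 2.63% higher). The 9 were HSPA5, HSP90B1, DNAJB9, CANX, PDIA4, PDIA6, ERO1A, SSR1 and SSR3, all among the 11 that rose in MMS1, whose arrays both tests share. Over all 42 genes the median of this difference was -0.33, against 0.04 over all genes.

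Among the 9 chaperones and co-chaperones, 4 rose in MMS1 and 0 fell (44.4% and 0.0%, against 4.34% and 8.08% of all genes). Their median log2 difference was 0.38, against -0.04 over all genes. HSPA5 (BiP), the main Hsp70 chaperone of the ER lumen, had log2 signals of 11.49, 11.14 and 11.06 on the MMS1 sponge arrays, against 10.07, 10.03 and 9.98 on the control arrays. In RPMI8226 its signals were 10.17, 10.23 and 10.19 with the sponge, against 10.23, 10.29 and 10.31 with the control. The MMS1 sponge arrays were above all 9 other arrays, and the other groups lay close together. HSPA5 rose by 1.20 ± 0.11 in MMS1 (SE; 2.3-fold; limma, adjusted p = 1.62e-05), while its difference in RPMI8226 was -0.08 (95% interval -0.32 to 0.17; limma, adjusted p = 0.82). The effect in RPMI8226 minus that in MMS1 was -1.28 ± 0.16 (SE; limma, adjusted p = 0.000445). HSPA5 thus had the largest rise of the 42 genes, on the probe set with a mean signal of 10.43. A dimmer HSPA5 probe set, with a mean of 6.40, gave -0.14 in MMS1 (limma, adjusted p = 0.679).

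HSP90B1 (GRP94), the Hsp90 chaperone of the ER, had signals of 9.49, 9.44 and 9.02 on the MMS1 sponge arrays, against 8.56, 8.65 and 8.75 on the control arrays. On the RPMI8226 sponge arrays it had 8.42, 8.30 and 8.32, against 8.82, 8.79 and 8.92 on the controls. The groups did not overlap in either line, and the sponge arrays were the higher ones in MMS1 and the lower ones in RPMI8226. It rose by 0.66 in MMS1 (SE 0.13; limma, adjusted p = 0.00419), and the RPMI8226 difference was -0.50 (limma, adjusted p = 0.119), which was called lower under the 2 settings named above. The difference of the 2 effects was -1.16 (limma, adjusted p = 0.00212). The other HSP90B1 probe set, with a mean of 7.97, was not called in any of these tests. It gave 0.40 in MMS1, 0.06 in RPMI8226 and -0.34 for the difference (limma, adjusted p = 0.347, 0.937 and 0.655). The opposite directions in the lines thus rest on the brighter probe set.

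DNAJB9 (ERdj4), a J-domain co-chaperone of HSPA5, had 8.59, 8.53 and 8.44 with the sponge in MMS1, against 8.13, 7.93 and 8.09 with the control. Its RPMI8226 sponge arrays read 7.54, 7.61 and 7.34, against 7.61, 7.62 and 7.84. The MMS1 sponge arrays again stood above all others, by 0.47 over their control (limma, adjusted p = 0.0158), and the effects of the lines differed by -0.66 (limma, adjusted p = 0.0281). HYOU1 (GRP170), a nucleotide exchange factor of HSPA5, had 9.54, 9.26 and 9.29 in MMS1 with the sponge, against 9.01, 8.79 and 9.04 with the control. Its RPMI8226 signals were 9.27, 9.36 and 9.22, against 9.26, 9.31 and 9.35, and overlapped. HYOU1 rose by 0.42 in MMS1 (limma, adjusted p = 0.0273), and here only the MMS1 control arrays stood apart from the other 9. The remaining 5, the J-domain proteins DNAJB11 and DNAJC3 with SDF2L1, MANF and CRELD2, were not called in MMS1 and ranged from -0.01 (CRELD2) to 0.38 (MANF). MANF was called higher with quantile normalization, with brighter probe sets only, with the mean over probe sets and with the trend (limma, adjusted p = 0.0409, 0.0171, 0.028 and 0.0141). A dimmer DNAJC3 probe set was called higher in MMS1 by 0.77 (limma, adjusted p = 0.0151), while its other dimmer ones, not called, gave -0.04 and 0.27. The mean over the DNAJC3 probe sets was called higher (0.31, limma, adjusted p = 0.0468). In RPMI8226 all 9 estimates of this group were below 0, from -0.50 to -0.02, with 0 called. Their median was -0.23, against -0.02 over all genes.

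**Figure D3:**
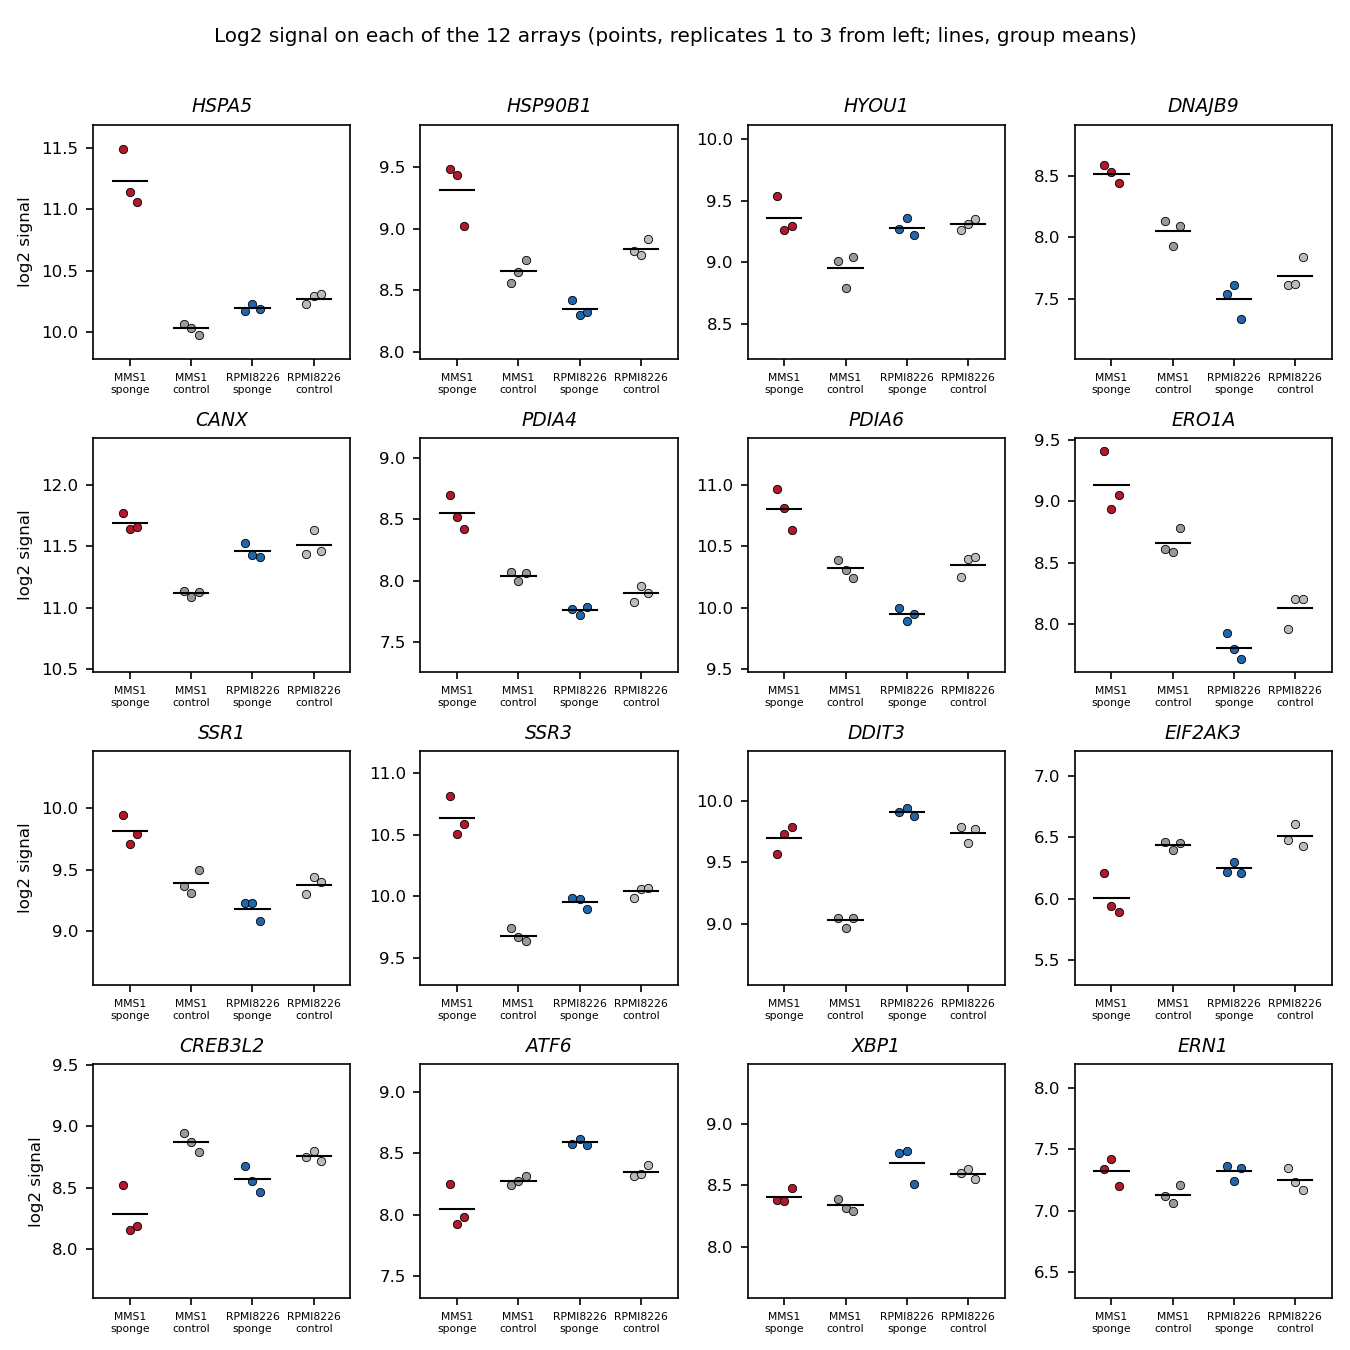
Log2 signal on each of the 12 arrays for the 13 genes called in MMS1 and for ATF6, XBP1 and ERN1, with group means as lines; every panel spans the same range of log2 units. HSPA5 and SSR3 show the MMS1 sponge arrays well above the other 9, whereas XBP1 and ERN1 show all groups close together.

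Calnexin and calreticulin are lectin chaperones that hold glycoproteins during folding, one in the ER membrane and one in the lumen, and 1 of the 2 was called in MMS1. CANX had 11.77, 11.64 and 11.66 on the MMS1 sponge arrays, against 11.14, 11.09 and 11.13 on the control arrays. In RPMI8226 its signals of 11.53, 11.43 and 11.41 overlapped with those of the controls, 11.44, 11.63 and 11.46. The MMS1 control arrays were the low group, and CANX rose there by 0.57 ± 0.10 (SE; limma, adjusted p = 0.00171). The effects of the lines differed by -0.63 (limma, adjusted p = 0.0171). CALR gave 0.05 in MMS1 (95% interval -0.18 to 0.27) and 0.19 in RPMI8226 (-0.04 to 0.42).

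Of the 6 genes of oxidative folding, 3 rose in MMS1 and 0 fell, with a median of 0.37. PDIA4, a protein disulfide isomerase, had 8.70, 8.52 and 8.42 with the sponge in MMS1, against 8.07, 8.0 and 8.06 with the control. In RPMI8226 it had 7.77, 7.72 and 7.79, against 7.83, 7.96 and 7.90. It rose by 0.50 in MMS1 (limma, adjusted p = 0.005), with an effect difference between lines of -0.64 (limma, adjusted p = 0.0177). PDIA6, another disulfide isomerase, had 10.97, 10.81 and 10.63 on MMS1 sponge arrays, against 10.39, 10.31 and 10.24 on controls. Its RPMI8226 sponge arrays, at 10.0, 9.89 and 9.95, lay below the controls at 10.25, 10.40 and 10.41. PDIA6 thus separated the groups in opposite directions, with a rise of 0.49 in MMS1 (limma, adjusted p = 0.0104) and -0.41 in RPMI8226 (limma, adjusted p = 0.13, called lower under the same 2 settings). The difference of the effects was -0.90 (limma, adjusted p = 0.00412), and all 4 PDIA6 probe sets were called higher in MMS1.

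ERO1A, the oxidase that recharges the disulfide isomerases, had 9.41, 8.94 and 9.05 on the MMS1 sponge arrays, against 8.61, 8.59 and 8.78 on the control arrays. In RPMI8226 the signals were 7.93, 7.80 and 7.72, against 7.96, 8.21 and 8.21. It rose by 0.47 in MMS1 (limma, adjusted p = 0.0387) and the effects differed by -0.79 (limma, adjusted p = 0.0295), but its other probe sets gave 0.10 and 0.06 in MMS1. The mean over its 3 probe sets ended the MMS1 call (0.21, adjusted p = 0.228). PDIA3, P4HB and ERO1B, a second oxidase, were not called in either line, with MMS1 differences of 0.26, 0.19 and -0.14. P4HB was called higher in MMS1 with a trend in the prior variance (limma, adjusted p = 0.0436).

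Among 7 genes of translocation and export, 2 rose in MMS1 and 0 fell (28.6% and 0.0%, against 4.34% and 8.08% of all genes). Both that rose encode subunits of the translocon-associated protein complex, which helps some signal sequences enter the ER. SSR3 had 10.82, 10.51 and 10.59 on the MMS1 sponge arrays, against 9.74, 9.67 and 9.64 on the control arrays. The RPMI8226 signals were 9.99, 9.98 and 9.90, against 9.99, 10.06 and 10.07. Its MMS1 rise of 0.96 ± 0.10 (SE; 1.94-fold; limma, adjusted p = 4.69e-05) was second to that of HSPA5. The effect difference between lines was -1.04 (limma, adjusted p = 0.000939), and 3 of its 4 probe sets were called higher in MMS1. SSR1 had 9.95, 9.71 and 9.79 with the sponge in MMS1, against 9.37, 9.31 and 9.50, and 9.23, 9.23 and 9.08 in RPMI8226, against 9.30, 9.44 and 9.40. It rose by 0.42 in MMS1 (limma, adjusted p = 0.0194), with an effect difference of -0.62 (limma, adjusted p = 0.0268). The channel subunits SEC61A1 and SEC61B, the signal peptidase subunit SPCS3, the receptor subunit SRPRB and the coat protein gene SEC24D were not called. Their MMS1 differences ran from -0.03 (SEC61A1) to 0.47 (SEC24D). SEC24D was called higher with brighter probe sets only (limma, adjusted p = 0.0433). Of the dimmer SPCS3 probe sets, one was called higher by 0.56 and the other gave 0.03 (limma, adjusted p = 0.00265 and 0.953).

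Of the 9 measured ERAD genes 0 were called in MMS1, with a median difference of -0.15, against -0.04 over all genes. Estimates ran from -0.35 for EDEM1, which routes misfolded glycoproteins to degradation, to 0.35 for HERPUD1, a scaffold of the ERAD complex. HERPUD1 was called higher with quantile normalization, with brighter probe sets only and with a trend in the prior variance (limma, adjusted p = 0.018, 0.0204 and 0.00981). In limma's test 3 of the 9 had an unadjusted p under 0.05, against 25.6% of all genes, and ERAD was not tested against the folding genes. In RPMI8226 the range was -0.54 (DERL1, part of the retrotranslocation channel) to 0.22 (DERL2), with 0 called. DERL1 had the most negative difference there of all 42 genes (limma, adjusted p = 0.108) and was the third gene called lower under those 2 settings. The ER membrane protein gene WFS1 and the ubiquitin-like modifier gene UFM1 were not called either on their brightest probe sets, with -0.22 and 0.19 in MMS1. Of the dimmer UFM1 probe sets, one was called higher there by 0.87 and the other gave 0.18 (limma, adjusted p = 0.00189 and 0.496). The mean over the UFM1 probe sets was called higher (0.42, limma, adjusted p = 0.037).

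Among the 7 sensors and effectors 1 rose and 2 fell in MMS1 on their brightest probe sets (14.3% and 28.6%, against 4.34% and 8.08% of all genes). The sensor that was called, EIF2AK3, fell, but a dimmer probe set of each gene that fell read above 0. EIF2AK3 had 6.21, 5.94 and 5.89 on the MMS1 sponge arrays, against 6.46, 6.40 and 6.45 on the control arrays. Its RPMI8226 sponge arrays read 6.22, 6.30 and 6.21, against 6.48, 6.61 and 6.43. The sponge arrays were the lower ones in both lines, and EIF2AK3 fell by 0.42 in MMS1 (limma, adjusted p = 0.0223), against -0.26 in RPMI8226 (limma, adjusted p = 0.305). Its dimmer probe set gave 0.28 in MMS1 (limma, adjusted p = 0.381). The mean over the EIF2AK3 probe sets was -0.07 (limma, adjusted p = 0.715), so its fall rests on the probe set. ATF6 had 8.25, 7.93 and 7.98 in MMS1 with the sponge, against 8.24, 8.28 and 8.32. In RPMI8226 it had 8.58, 8.62 and 8.57, against 8.32, 8.33 and 8.41. Its groups overlapped in MMS1 and did not in RPMI8226, where the sponge arrays were higher, and neither difference was called (-0.23 and 0.24; limma, adjusted p = 0.208 and 0.331). The difference of its effects was called positive with quantile normalization (0.53), brighter probe sets only (0.46), the mean over probe sets (0.48) and the trend (0.46), with adjusted p = 0.0167 to 0.0358 in limma's test.

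ERN1 had 7.34, 7.42 and 7.20 on the MMS1 sponge arrays, against 7.12, 7.06 and 7.21 on the controls. The RPMI8226 signals were 7.36, 7.24 and 7.35, against 7.35, 7.23 and 7.17. On this probe set the groups overlapped in both lines and ERN1 was not called in MMS1 (0.19; limma, adjusted p = 0.301). Both dimmer ERN1 probe sets were called higher there, by 0.58 and 1.24, so all 3 probe sets of ERN1 read above 0 and differ in size. The mean over its 3 probe sets gave 0.67 (limma, adjusted p = 0.000261). XBP1 had 8.38, 8.37 and 8.48 with the sponge in MMS1, against 8.39, 8.32 and 8.29, and 8.76, 8.78 and 8.51 in RPMI8226, against 8.6, 8.63 and 8.55. Its groups overlapped in both lines, with differences of 0.08 and 0.09 (95% intervals -0.14 to 0.29 and -0.12 to 0.31). A 3' expression array sums the spliced and unspliced forms of XBP1 mRNA, so splicing was not measured.

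DDIT3 (CHOP), the transcription factor downstream of EIF2AK3, had 9.57, 9.73 and 9.79 on the MMS1 sponge arrays, against 9.05, 8.97 and 9.05 on the controls. In RPMI8226 it had 9.91, 9.94 and 9.88, against 9.79, 9.66 and 9.77. The sponge arrays were higher in both lines without overlap. DDIT3 rose by 0.67 in MMS1 (limma, adjusted p = 0.000524), with 0.17 in RPMI8226 (limma, adjusted p = 0.47), and the effects of the lines differed by -0.50, which missed the threshold (limma, adjusted p = 0.0507; 0.00251 to 0.0164 with brighter probe sets, the mean over probe sets or the trend). PPP1R15A, which restores translation after EIF2AK3 has acted, gave 0.20 in MMS1 and -0.15 in RPMI8226, neither called. CREB3L2, an ER membrane transcription factor of the ATF6 kind, had 8.52, 8.16 and 8.19 in MMS1 with the sponge, against 8.95, 8.87 and 8.79. In RPMI8226 it had 8.68, 8.56 and 8.47, against 8.75, 8.80 and 8.72. It fell by 0.58 in MMS1 on this probe set (limma, adjusted p = 0.00492), but a dimmer probe set was called higher by 0.71. The mean over its 3 probe sets was 0.02 (limma, adjusted p = 0.916), so its direction rests on the probe set.

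Over all 106 probe sets that name a listed gene alone, 26 were called higher and 2 lower in MMS1, 0 either way in RPMI8226, and 22 lower and 1 higher in the difference of the effects. Over all 54613 probe sets, 4.2% were called higher and 6.11% lower in MMS1, 0.0238% and 0.172% in RPMI8226, and 3.1% lower and 2.0% higher in the difference. CREB3L2 was the only listed gene with probe sets called both ways. For HSP90B1, CALR, PDIA6, EDEM3, OS9, SPCS3 and SRPRB the brightest probe set carries the suffix x_at, by which the manufacturer marks probes shared with other transcripts, so their values are less certain.

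The calls in MMS1 were not equally firm. MMS1 sponge replicate 1 was the highest of the 3 sponge arrays for 33 of the 42 genes and for 10 of the 11 that rose. Without it 8 genes rose and 4 fell, the median was 0.11, HYOU1, SSR1 and ERO1A lost their call (limma, adjusted p = 0.0722, 0.0505 and 0.11), and EDEM1 and ATF6 were called lower (-0.51 and -0.32). HSPA5, SSR3, DDIT3, HSP90B1, CANX, PDIA4, PDIA6 and CREB3L2 kept theirs whichever array was left out. HYOU1 and SSR1 also lost theirs without MMS1 control replicate 1 or 2 (adjusted p = 0.0567 to 0.115), and DNAJB9 without MMS1 control replicate 2 (0.0709). EIF2AK3 lost its call without any of 5 MMS1 arrays, all but sponge replicate 1 (0.0531 to 0.0805), and with the mean over its probe sets (-0.07, adjusted p = 0.715). ERO1A lost its call without any of 8 arrays: the 3 MMS1 controls, MMS1 sponge replicates 1 and 3, RPMI8226 control replicates 2 and 3 and RPMI8226 sponge replicate 2 (0.0505 to 0.12). On the 6 MMS1 arrays alone 7 genes rose and 1 fell, and HYOU1, SSR1, PDIA6, EIF2AK3 and ERO1A were not called (adjusted p = 0.0507 to 0.0975).

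**Figure D4:**
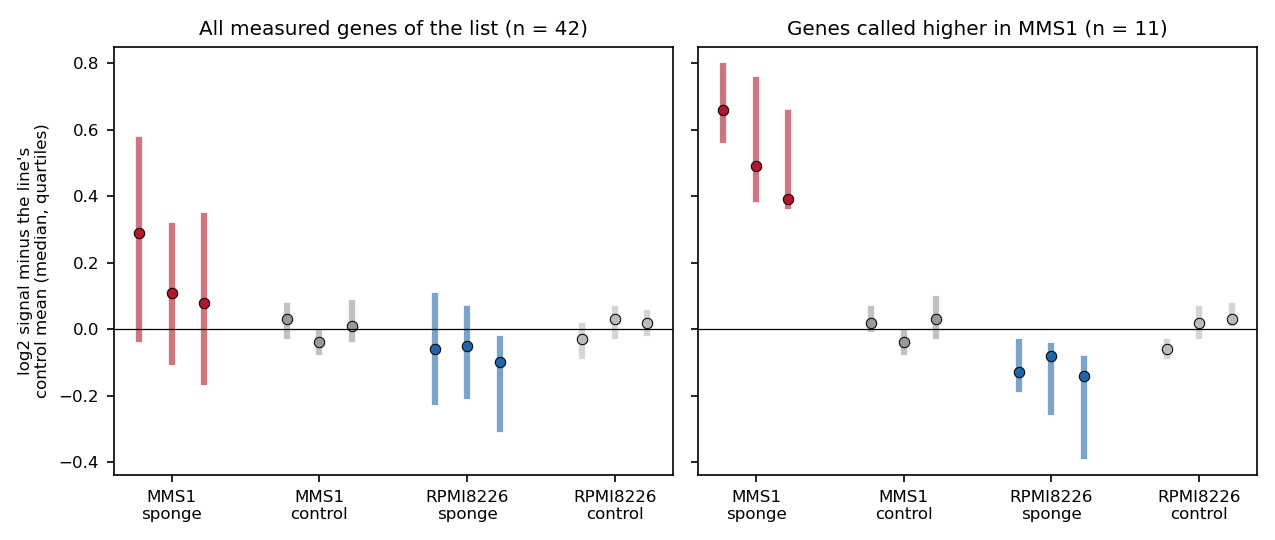
For each array, the median (point) and quartiles (bar) over genes of the log2 signal minus the mean of the control arrays of the same line, for all 42 listed genes (left) and for the 11 that rose in MMS1 (right, chosen for that rise). MMS1 sponge replicate 1 is highest, at 0.29 over all listed genes, with 0.11 and 0.08 on the other MMS1 sponge arrays and -0.10 to -0.05 on the RPMI8226 sponge arrays.

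Erythroid markers moved in the same MMS1 comparison. Of the 9 measured, 5 fell: ALAS2 (-2.51), HBZ (-1.94), KLF1 (-1.85), NFE2 (-0.84) and GATA1 (-0.41), with adjusted p = 1.15e-07, 2.04e-08, 1.97e-07, 0.000178 and 0.0158 in limma's test. The other two called genes rose, RHAG, an erythrocyte membrane protein gene, by 2.47 (5.53-fold; limma, adjusted p = 2.04e-08) and TAL1 by 0.62 (0.00296), while HBE1 (-0.21) and EPOR (-0.08) were not called. The markers thus went both ways, with 22.2% called higher and 55.6% lower, against 4.34% and 8.08% of all genes. Their summed linear signal was 25805 to 26995 on the MMS1 sponge arrays, against 42177 to 43880 on the MMS1 control arrays. In RPMI8226 it was 27039 to 27371 with the sponge, against 33081 to 33820 with the control. These sums are mostly the globins HBE1 and HBZ, which made 81.6% to 90.2% of them by array. The other 7 genes summed to 3202 to 3669 on the MMS1 sponge arrays, against 4138 to 4440 on the MMS1 controls, and to 4501 to 4965 on the RPMI8226 sponge arrays, against 5003 to 5223 on the RPMI8226 controls. In RPMI8226 1 of the 9, HBE1, fell (-0.49, limma, adjusted p = 0.046), where 0.202% of all genes were called lower. The 12 plasma cell markers gave 0 calls in both lines in limma's test, with 1 at an unadjusted p under 0.05 in each. They summed to 1266 to 1389 on MMS1 sponge arrays, against 1270 to 1295 on MMS1 controls. In RPMI8226 they summed to 1466 to 1582 with the sponge, against 1304 to 1452 with the control, without overlap. The part of these shifts in the result for the ER genes was not tested.

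The lines were also compared directly under each sponge. On the sponge arrays, RPMI8226 was lower than MMS1 for 23 listed genes and higher for 4 (54.8% and 9.52%, against 8.38% and 12.2% of all genes), with a median difference of -0.36 (0.06 over all genes). On the control arrays it was lower for 4 and higher for 3 (9.52% and 7.14%, against 3.8% and 6.52% of all genes), with a median of -0.04 (0.03 over all genes). With the sponge, all 6 genes of oxidative folding and 8 of 9 chaperones were lower in RPMI8226, against 2 of 6 and 0 of 9 with the control. Some of these sponge-array calls were not firm. SDF2L1, CRELD2 and DNAJB11 lost theirs without any of 10, 9 and 3 arrays (limma, adjusted p up to 0.111, 0.161 and 0.0768). PDIA3 and ERO1B lost theirs with the mean over probe sets (-0.19 and -0.34, limma, adjusted p = 0.0931 and 0.0668). The comparisons under the 2 sponges use different arrays. The test of their difference is that of the effects given above, which called 9 genes.

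The 6 largest differences on the sponge arrays were those of SEC24D (-1.48), ERO1A (-1.32), HSPA5 (-1.03), DNAJB9 (-1.02), HSP90B1 (-0.97) and PDIA6 (-0.86), all with an adjusted p of at most 0.000192 in limma's test. SEC24D, a cargo-binding subunit of the coat that buds from the ER, had 5.81, 6.02 and 5.37 on the RPMI8226 sponge arrays, against 7.43, 6.96 and 7.26 on the MMS1 sponge arrays. With the control its signals were 5.95, 6.11 and 6.04 in RPMI8226, against 6.67, 6.57 and 6.99 in MMS1 (-0.71, limma, adjusted p = 0.0216). On this probe set SEC24D was thus lower in RPMI8226 under both sponges. Its dimmer probe sets, not called, gave -0.33 and -0.05 on the sponge arrays and 0.18 and -0.09 on the control arrays. The genes higher in RPMI8226 on the sponge arrays were ATF6 (0.54), SEL1L (0.50), EDEM3 (0.43) and EDEM2 (0.37), a sensor and 3 ERAD genes (limma, adjusted p = 0.00277, 0.00395, 0.0156 and 0.0388). SEL1L turned to -0.05 with the mean over its 4 probe sets (adjusted p = 0.739), the other 3 reading -0.27, -0.28 and -0.14, so its direction rests on the probe set. EDEM3 lost its call without RPMI8226 sponge replicate 1 (adjusted p = 0.0676). EDEM2 lost its call without any of 8 arrays: the 3 RPMI8226 sponge arrays, RPMI8226 control replicate 3, MMS1 sponge replicates 2 and 3 and MMS1 control replicates 1 and 2 (up to 0.136).

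On the control arrays the genes higher in RPMI8226 were DDIT3 (0.71), CANX (0.39) and SSR3 (0.35), and those lower were ERO1B (-0.79), SEC24D (-0.71), ERO1A (-0.53) and CALR (-0.42). DDIT3 and ERO1B kept their call whichever array was left out (limma, adjusted p at most 0.00305 and 0.00646). CALR and ERO1A lost theirs without any of the 6 control arrays (up to 0.103 and 0.0971). CANX lost its call without any control array but RPMI8226 replicate 1 (up to 0.108), SEC24D without any but MMS1 replicate 2 (up to 0.0932), and SSR3 without any of 10 arrays, all but MMS1 sponge replicates 1 and 2 (up to 0.149). The mean over probe sets also ended the calls of CANX and SEC24D (0.18 and -0.21, limma, adjusted p = 0.282 and 0.242). SSR3 was called in opposite directions under the 2 sponges, with -0.68 on the sponge arrays (limma, adjusted p = 0.00049), and ERO1A, ERO1B and SEC24D were called lower under both. Another 23 listed genes were called on the sponge arrays and not on the control arrays.

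**Figure D5:**
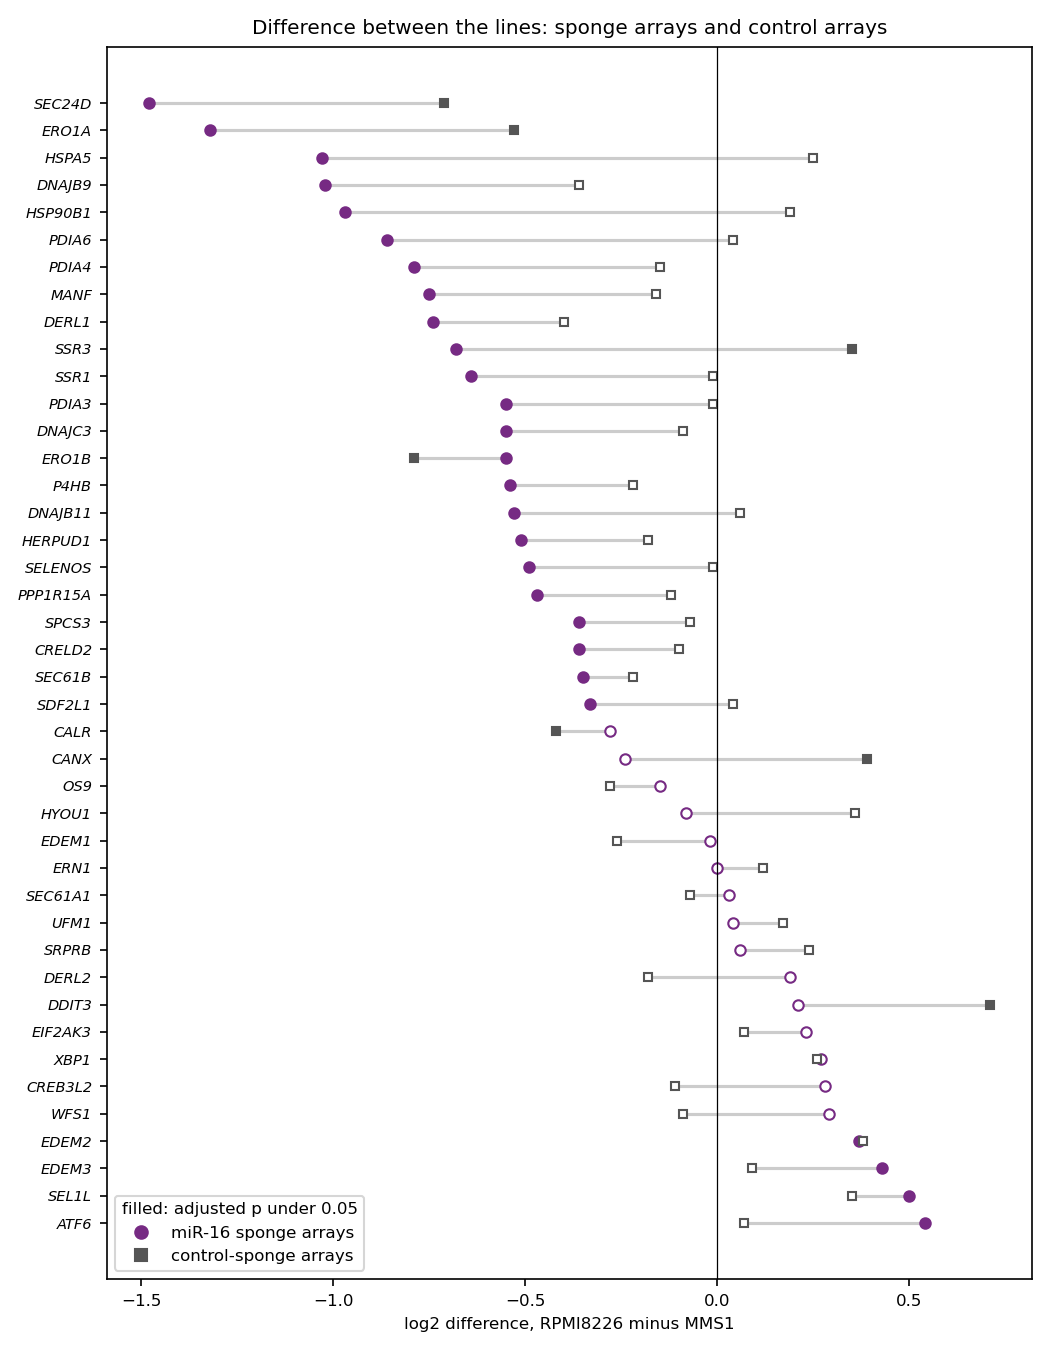
Log2 difference RPMI8226 minus MMS1 for each of the 42 genes on miR-16 sponge arrays (circles) and on control-sponge arrays (squares), joined by a line and sorted by the first; filled symbols have an adjusted p under 0.05. Most filled circles lie left of 0 (23 of 27), while the filled squares lie on both sides (4 left, 3 right).

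Further genes of the same pathways were read from a second list of 98, of which 90 were measured. In MMS1 10 rose and 7 fell (11.1% and 7.78%, against 4.34% and 8.08% of all genes), so the share that fell was near that of all genes. Of the 27306 probe sets above the median signal, tested alone, 2543 were called higher and 4023 lower in MMS1. In RPMI8226 limma's test called 0, with 21 at an unadjusted p under 0.05 (23.3%, against 14.3% of all genes). Of those brighter probe sets 6097 had such a p there. The list was not tested against genes of like brightness. In the integrated stress response, the branch that EIF2AK3 shares with other kinases, 3 of 16 rose in MMS1 and 0 fell (18.8% higher, against 4.34% of all genes). The other 13 were not called, and 12 of the 16 estimates were above 0. ATF4, not called, had group means of 11.56 with the sponge and 11.46 with the control in MMS1. TRIB3 had 10.35 and 10.41, and CHAC1 6.76 and 6.80, neither called. SESN2, a stress-induced regulator of nutrient signalling, rose by 1.15 (limma, adjusted p = 8.57e-06), SLC7A11, a cystine transporter, by 0.56 (0.0121) and the kinase gene EIF2AK1 by 0.45 (0.0169).

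Other folding enzymes were called both ways in MMS1, with 18.8% higher and 12.5% lower, against 4.34% and 8.08% of all genes. The shares were 0.0% and 23.1% for the further ERAD genes and 0.0% and 7.14% for the sensor cofactors. For the other genes of translocation, glycosylation and transport they were 15.4% and 3.85%. With 4.34% of all genes called higher, the absence of a rise is no result about the further ERAD genes or the cofactors. Of 16 other folding enzymes 3 rose, the thiol-dependent retention factor gene ERP44 (0.49), CALU (0.43) and the peroxiredoxin gene PRDX4 (0.38), and 2 fell, the glycoprotein folding checkpoint gene UGGT1 (-0.66) and ERP29 (-0.36). Of 13 further ERAD genes 0 rose and 3 fell, namely UBXN4 (-0.74), the peptide N-glycanase gene NGLY1 (-0.63) and UFD1 (-0.43), with adjusted p = 0.00267, 0.00122 and 0.00568 in limma's test. Of 26 other genes of translocation, glycosylation and transport 4 rose, the signal peptidase subunit gene SEC11C (0.71), TRAM1 (0.51), the retrieval receptor gene KDELR1 (0.41) and SEC62 (0.39), and SEC13 fell (-0.36). Of 14 sensor cofactors and related factors only CREB3L4 was called, and fell (-0.37), and of 5 genes of UFM1 conjugation 0 were called (limma, 2 at an unadjusted p under 0.05). In the difference between the lines, 8 of the 90 were called, all with the lower effect in RPMI8226. That is 8.89%, against 3.27% of all genes called lower and 2.63% higher. Among the 42 listed genes 9 were called (21.4%).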

How the data were processed

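The authors deposited a table of log2 signals for 54675 probe sets on 12 arrays. Their summarization and scaling are not given in the sources used here. Per the labels' protocols, RNA was amplified in 2 rounds before hybridization. Of 54613 probe sets tested (62 control probe sets left out), 41091 name 1 gene, 1801 several and 11721 none in GEO's platform annotation. Symbols were updated through gene IDs of GRCh38.p14 for 41037. A gene is its brightest single-gene probe set by the mean over 12 arrays.

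The 4 group means were estimated together from the 12 arrays with limma 3.58.1 (R 4.3.3), with Benjamini-Hochberg adjustment within each of 5 comparisons and two-sided tests. The number of arrays limits the precision (median SE 0.14). The fit was tested on simulated data. Other settings were quantile normalization, brighter probe sets only, the mean over the probe sets of a gene, a replicate block, only the groups compared, a trend in the prior variance and leaving out each array. Replicate numbers did not pair the arrays: residuals of 18 same-numbered pairs correlated at -0.0748 to 0.0577. Values on every array are given for genes called in a sponge effect or its line difference and for ERN1, EIF2AK3, ATF6 and XBP1, up to 6 genes each way are named per line difference, and up to 4 each way per further list. Other genes at the ends of a range, the signals of SEC24D, the erythroid genes and the genes gained without an array were chosen after their values were seen. The members and lists were chosen with earlier results of these data known. Promoter and microRNA sequences are RefSeq's, GRCh38.p14. Counts used Python 3.11.15 and pandas 2.3.3.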

Additional observations from a re-analysis of the deposited data

Results flagged for a closer look

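For 9 listed genes the effect of the miR-16 sponge differed between the lines by the interaction test in limma, and each difference, RPMI8226 effect minus MMS1 effect, was negative. HSPA5 differed by -1.28, from an effect of -0.08 in RPMI8226 and 1.20 in MMS1. HSP90B1 differed by -1.16 (-0.50 in RPMI8226 and 0.66 in MMS1), SSR3 by -1.04 (-0.08 and 0.96) and PDIA6 by -0.90 (-0.41 and 0.49). The differences were -0.79 for ERO1A, -0.66 for DNAJB9, -0.64 for PDIA4, -0.63 for CANX and -0.62 for SSR1. PDIA6, HSP90B1 and SSR3 kept this call with every array left out in turn and under the 5 other settings run for this difference, which has no version on only the groups compared. HSPA5 kept it with every array left out and lost it with the mean over its 2 probe sets (-0.49, adjusted p = 0.0806). CANX and PDIA4 lost it without RPMI8226 control replicate 2 (adjusted p = 0.0519 and 0.0518). SSR1 and ERO1A lost it without any of 6 arrays, RPMI8226 control replicates 2 and 3, RPMI8226 sponge replicates 2 and 3 and MMS1 control replicates 1 and 2 (up to 0.0725 and 0.0763). DNAJB9 lost it without any of 5 arrays, RPMI8226 control replicate 3, RPMI8226 sponge replicate 3, MMS1 sponge replicate 2 and MMS1 control replicates 2 and 3 (up to 0.0758).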

How the results depend on the processing

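The main count of called genes was 13 in MMS1 and 8 on the groups compared alone, and leaving out 1 array gave 8 (without MMS1 control replicate 2) to 14. RPMI8226 gave 0, but 3 with brighter probe sets only and 3 with a trend in the prior variance (PDIA6, HSP90B1 and DERL1, all lower). For the difference of the effects the count was 9, against 16 with brighter probe sets only and 20 with the trend, and 5 (without RPMI8226 control replicate 2) to 11 leaving out 1 array. On control arrays the line difference gave 7, against 11 with quantile normalization, 13 with brighter probe sets, 11 with the mean over probe sets and 15 with the trend. Leaving out 1 array moved it from 7 to 2 (without MMS1 control replicate 1 or 3 or RPMI8226 control replicate 2 or 3), 3 (without MMS1 control replicate 2 or RPMI8226 control replicate 1) or 11 (without MMS1 sponge replicate 1). On sponge arrays the count of 27 stayed within 1.5 times in every setting. With replicate number as a block, 10 genes rose and 2 fell in MMS1 and 6 were lower in the difference of the effects, which lost SSR1, DNAJB9 and ERO1A. The pairing of the numbers was not borne out. With the mean over probe sets the sign turned for CREB3L2 in MMS1 (0.02, adjusted p = 0.916), for ERN1 in RPMI8226 (-0.06, 0.795), for XBP1 there (0.00, 0.997) and for SEL1L on the sponge arrays (RPMI8226 minus MMS1, -0.05, 0.739). Of 13 genes called in MMS1, 8 kept the call with every array left out in turn and 6 in every setting run for that comparison; of the 9, 7 and 27 in the other comparisons, 4, 2 and 19 and then 3, 2 and 15 did. Where not stated, the cause of these shifts was not tested. The number of arrays limits what can be called.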
